A study of Mus musculus with 14 samples.

Results

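Liver RNA libraries whose sample titles began with the number 1 were compared with those whose titles began with the number 2, in all 14 libraries of the series. The number 1 stood on 8 libraries and the number 2 on 6, and each number occurred on both diets. The diets were low fat with low sucrose (LFLS) and high fat with high sucrose (HFHS), and each library came from 1 mouse. The LFLS libraries of number 1 (LFLS-1, n = 4) were set against those of number 2 (LFLS-2, n = 3), and likewise HFHS-1 (n = 4) against HFHS-2 (n = 3). No genotype, drug or time point was named for any group. Strain, sex, age, length of feeding, time of collection and the meaning of the title number are not stated in the labels, so whatever the number stands for cannot be told apart from it. Replicates within a group were numbered in the order of their records, which carries no meaning.

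The liver label fitted the libraries. The 23 listed hepatocyte identity genes, such as albumin, all passed the filter on low counts and summed to 98930 to 159400 CPM (counts scaled to a common library total, with TMM factors) over the libraries. Total counts per library ran from 18.2 M to 52.8 M and did not differ detectably between the numbers (two-sided exact permutation within diets, p = 0.399, adjusted p = 0.479 over 6 library measures). Mitochondrially encoded transcripts took 2.74 ± 1.05% of counts in LFLS-1 (SD, n = 4), 4.52 ± 0.31% in LFLS-2 (SD, n = 3), 4.52 ± 0.39% in HFHS-1 (SD, n = 4) and 4.80 ± 0.18% in HFHS-2 (SD, n = 3). The difference over both diets was 1.03 percentage points (exact permutation p = 0.0147, adjusted p = 0.0441), and 0.940 points without LFLS-2 replicate 2 (exact permutation p = 0.0552). Within LFLS alone the exact permutation p was 0.0571 and within HFHS alone 0.257. In bulk liver, fewer cells of a type and less RNA per cell cannot be told apart.

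Title number differences were called far more widely in LFLS than in HFHS. In a fit with 4 groups 6688 genes (36.7%) passed an adjusted p of 0.05 in LFLS and 27 (0.148%) in HFHS. Differences shared by both diets, by the rule below, occurred among clock genes, fasting and glucocorticoid genes and resident macrophage genes. With diet as a covariate, the quasi-likelihood test of edgeR, adjusted by Benjamini and Hochberg's method, called 4931 of 18236 genes at an adjusted p under 0.05, or 27.0%. Of these 2397 were higher under number 2 (13.1% of genes tested) and 2534 were lower (13.9%). A gene was counted as shared by both diets where it was called, had the same direction in LFLS and in HFHS, and had an unadjusted p under 0.05 in each diet. By this rule 659 genes were higher in both diets under number 2 (3.61% of genes tested) and 825 were lower (4.52%). Of the shared genes, 139 were at least 2-fold higher and 107 at least 2-fold lower. Separately, 1604 genes (8.8%) had number 1 and number 2 libraries that did not overlap in either diet and lay in the same order, and 1000 of them were shared.

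The mammalian clock is a transcription loop. ARNTL (BMAL1) and CLOCK activate genes through the E-box, CACGTG, among them the Per and Cry repressors and the nuclear receptor REV-ERB alpha, encoded by Nr1d1. REV-ERB proteins repress and ROR proteins activate Arntl and other genes through a second element, the RORE. In liver the loop sets daily rhythms of bile acid, lipid and glucose metabolism, and glucocorticoids and feeding reset it. Promoters of 4 clock genes that differed between the title numbers in both diets are shown because each holds one of these elements close to the start site. They are RefSeq windows from 250 bases before to 50 bases after a start on GRCm38.p6, written 5′ to 3′ on the gene's strand with the element in capitals. The Cry1 window is chr10:85185005-85185304 (minus strand), that of Bhlhe41 chr6:145865371-145865670 (minus), the second listed window of Arntl chr7:113207261-113207560 (plus) and that of Nfil3 chr13:52980990-52981289 (minus).
Cry1: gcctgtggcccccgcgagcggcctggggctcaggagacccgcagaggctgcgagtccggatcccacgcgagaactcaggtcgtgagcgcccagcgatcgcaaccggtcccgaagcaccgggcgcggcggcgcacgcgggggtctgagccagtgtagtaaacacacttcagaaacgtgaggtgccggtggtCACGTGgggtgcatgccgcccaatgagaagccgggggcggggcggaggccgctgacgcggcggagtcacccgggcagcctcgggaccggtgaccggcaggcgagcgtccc
Bhlhe41: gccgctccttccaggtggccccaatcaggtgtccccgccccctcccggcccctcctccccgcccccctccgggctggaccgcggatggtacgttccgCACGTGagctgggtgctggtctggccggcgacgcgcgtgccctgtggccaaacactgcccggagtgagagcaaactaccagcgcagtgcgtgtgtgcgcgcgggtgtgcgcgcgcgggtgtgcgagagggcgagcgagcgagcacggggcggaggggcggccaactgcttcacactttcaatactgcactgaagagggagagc
Arntl: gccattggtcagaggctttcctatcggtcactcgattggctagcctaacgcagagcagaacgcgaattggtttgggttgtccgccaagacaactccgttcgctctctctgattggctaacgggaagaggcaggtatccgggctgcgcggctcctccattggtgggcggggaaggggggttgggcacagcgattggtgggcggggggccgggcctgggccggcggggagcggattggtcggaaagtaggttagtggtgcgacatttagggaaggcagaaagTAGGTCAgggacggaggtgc
Nfil3: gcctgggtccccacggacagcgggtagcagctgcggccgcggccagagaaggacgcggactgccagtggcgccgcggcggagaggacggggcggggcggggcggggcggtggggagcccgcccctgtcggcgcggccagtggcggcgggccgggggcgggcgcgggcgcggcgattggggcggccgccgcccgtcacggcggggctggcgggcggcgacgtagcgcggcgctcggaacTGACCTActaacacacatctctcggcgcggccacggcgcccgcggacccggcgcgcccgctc

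The capitals in Cry1 and Bhlhe41 mark CACGTG, which begins at -60 and -153 relative to the start site. Those in Arntl mark the RORE TAGGTCA at 31 bases into the transcript, and those in Nfil3 its reverse complement TGACCTA at -12. Both strands were searched for CACGTG, for the RORE as TAGGTCA or TGGGTCA, and for the D-box TTATGTAA. Of 32851 promoter windows of this length 7.15% held the E-box, 6.45% the RORE, 0.938% the D-box, 1.79% the CRE and 0.475% the GRE. None of these letters occurred in the windows of Nr1d1, Dbp, Rora, Npas2, Por, Ccrn4l (newer symbol Noct) or Alas1. The first window of Arntl and the second of Per1 held none either. The first window of Per1, which is not shown, held CACGTG at -166. A match describes letters in a window, not binding.

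Genes of the clock loop differed in both directions. Of the 18 core clock genes, all of which were tested, 6 were called higher and 4 lower under number 2, and 8 were not called. Those shared by both diets included Cry1, Arntl and Rora among the higher genes and Nr1d1 and Bhlhe41 among the lower ones. The list's median log2 difference was 0.31, against -0.04 for all genes tested, of which 13.1% were called higher and 13.9% lower.

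Nr1d1 (ENSMUSG00000020889) read 243, 94.0, 103 and 99.8 CPM in LFLS-1 and 6.04, 16.3 and 14.8 CPM in LFLS-2. In HFHS-1 it read 57.6, 60.8, 69.3 and 90.5 CPM, and in HFHS-2 21.3, 14.5 and 19.4 CPM. Every number 2 library lay below every number 1 library of both diets, and LFLS-1 replicate 1 stood above the others. The fitted difference with diet as covariate was -2.66 ± 0.35 (log2, SE; adjusted p = 0.000561 by edgeR), with -3.44 in LFLS and -1.92 in HFHS. Bhlhe41 (ENSMUSG00000030256), which encodes the E-box repressor DEC2, read 12.4, 5.21, 7.34 and 6.51 CPM in LFLS-1 against 1.84, 4.90 and 2.42 CPM in LFLS-2. In HFHS-1 Bhlhe41 stood at 4.46, 7.16, 6.54 and 6.74 CPM and in HFHS-2 at 1.75, 2.56 and 2.29 CPM. Within each diet it was thus lower in every number 2 library than in any number 1 library. The log2 difference was -1.43 ± 0.24 (adjusted p = 0.00198, edgeR). Nr1d1 and Bhlhe41 were also named as large differences, a set limited to genes without overlap in either diet. Their lack of overlap within diets is therefore not a separate result.

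The genes higher under number 2 included a repressor of the loop and an activator that acts at the RORE. Cry1 (ENSMUSG00000020038), the repressor cryptochrome 1, read 5.28, 3.14, 7.72 and 3.24 CPM in LFLS-1 and 19.3, 17.6 and 21.1 CPM in LFLS-2. In the HFHS diet Cry1 read 6.79, 4.74, 3.91 and 3.78 CPM under number 1 and 12.5, 18.6 and 17.6 CPM under number 2. The 2 sets of libraries did not overlap in either diet, which was a condition of naming Cry1 among the largest differences. The log2 difference was 1.86 ± 0.20 (adjusted p = 0.000189, edgeR), 1.97 in LFLS and 1.75 in HFHS. Rora, the ROR alpha gene, was higher by 0.49 ± 0.08 (adjusted p = 0.00241, edgeR), again without overlap in either diet. With offsets for the GC content and length of genes, described further on, its difference was 0.13 (adjusted p = 0.335, edgeR).

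Arntl (ENSMUSG00000055116), the BMAL1 gene, read 3.18, 3.35, 5.86 and 6.51 CPM in LFLS-1 and 16.4, 5.26 and 13.0 CPM in LFLS-2. In HFHS-1 Arntl read 1.97, 2.32, 1.60 and 1.96 CPM and in HFHS-2 4.26, 6.78 and 5.50 CPM. The groups overlapped in LFLS, where LFLS-2 replicate 2 lay among the number 1 libraries, and did not overlap in HFHS. Its log2 difference was 1.39 ± 0.24 (adjusted p = 0.00214, edgeR), 1.28 in LFLS and 1.50 in HFHS. Calls for Nr1d1, Cry1, Arntl and Bhlhe41 were kept, in the same direction, under each of 28 alternative analyses.

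The Per genes, which encode the other E-box-driven repressors, and further loop members were less uniform. Per1 was called at 1.00 ± 0.30 (adjusted p = 0.0256, edgeR) but was not shared. The adjusted p was 0.0636 without LFLS-2 replicate 2 and 0.0515 without LFLS-2 replicate 3, by edgeR. Per2 had a difference of 0.38 ± 0.14 (adjusted p = 0.0531, edgeR) and Per3 of 0.42 ± 0.24 (adjusted p = 0.201, edgeR), neither past the threshold. Bhlhe40, which encodes the E-box repressor DEC1, had -0.29 ± 0.12 (adjusted p = 0.0735, edgeR) and also missed it. Npas2, a paralogue of CLOCK, was called at -1.09 ± 0.35 (adjusted p = 0.0355, edgeR), with -1.97 in LFLS and -0.12 in HFHS. The casein kinase gene Csnk1e (-0.37) was also called and not shared. The calls of Npas2 and Csnk1e were each lost without any 1 of 6 libraries, with adjusted p values of 0.0560 to 0.111 and 0.0545 to 0.0802 (edgeR). These libraries were LFLS-1 replicates 2 to 4 and LFLS-2 replicates 1 to 3 for Npas2, and LFLS-1 replicates 2 and 3, LFLS-2 replicates 1 to 3 and HFHS-1 replicate 1 for Csnk1e. Nr1d2, the REV-ERB beta gene, had 0.66 in LFLS and -0.04 in HFHS, a difference between diets past the threshold (interaction adjusted p = 0.0422, edgeR).

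**Figure D1:**
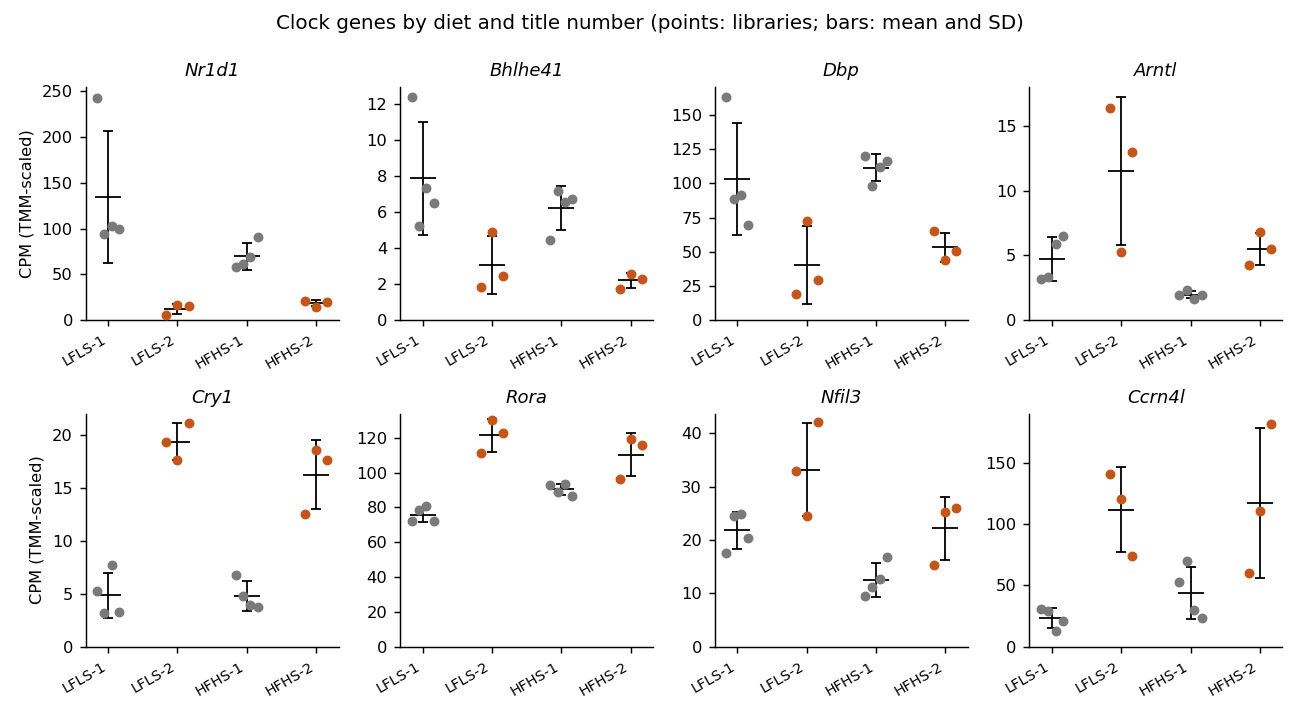
CPM of 8 clock and clock output genes in each library (points; grey, title number 1; orange, title number 2) by group, with the mean and SD as bars and a linear vertical axis from 0. The orange points lie below the grey ones of the same diet in Nr1d1, where HFHS-2 spans 14.5 to 21.3 CPM, and above them in Cry1 and Rora.

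Clock output genes, which carry the rhythm into metabolism, were called mostly upwards, beside 13.1% of all genes tested called higher. Of 20 tested 9 were called higher and 1 lower, and 4 of the higher ones and the lower one were shared. The lower gene was Dbp (ENSMUSG00000059824), an activator at D-boxes. It read 163, 88.6, 91.2 and 69.5 CPM in LFLS-1, 18.7, 72.6 and 29.6 CPM in LFLS-2, 120, 97.7, 112 and 116 CPM in HFHS-1 and 65.1, 44.1 and 50.6 CPM in HFHS-2. Only LFLS-2 replicate 2 reached into the range of number 1 of its diet, and the log2 difference was -1.21 ± 0.26 (adjusted p = 0.00643, edgeR). Nfil3, the repressor at the same element, was higher by 0.72 ± 0.16 (adjusted p = 0.00741, edgeR). Its libraries spanned 17.5 to 24.8 CPM in LFLS-1, 24.6 to 42.1 CPM in LFLS-2, 9.43 to 16.8 CPM in HFHS-1 and 15.4 to 26.0 CPM in HFHS-2, overlapping in both diets.

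Ccrn4l (ENSMUSG00000023087; newer symbol Noct), the nocturnin gene, was higher by 1.84 ± 0.31 (adjusted p = 0.00208, edgeR). It ran from 12.9 to 30.6 CPM in LFLS-1 and 74.0 to 141 CPM in LFLS-2, and in HFHS from 23.4 to 69.9 CPM to 59.8 to 182 CPM, where the groups overlapped. Por, the electron donor of P450 enzymes (0.78 ± 0.21), and Alas1, the first enzyme of haem synthesis (0.73 ± 0.16), were shared as well. Rbm3, Wee1, Tsku, Lpin1 and Usp2 were called higher, at 0.78, 0.82, 0.90, 1.63 and 0.98 on the log2 scale, but were not shared. Usp2 lost its call without any 1 of 7 libraries (LFLS-1 replicates 2 to 4, LFLS-2 replicates 2 and 3, HFHS-1 replicate 4 and HFHS-2 replicate 3), with adjusted p values of 0.0503 to 0.106 by edgeR. With GC and length offsets the core clock list had 6 higher and 2 lower members and the output list 10 and 1. With the LFLS libraries alone these counts were 6 and 4, and 7 and 1. With the HFHS libraries alone they were 3 and 2, and 1 and 1.

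Genes that fasting and glucocorticoids induce in liver had the largest share of members called higher under number 2 among the 38 lists. The lists were chosen with earlier results of these data known, so this rank is descriptive only. Of 24 tested 18 were called higher and 1 lower, against 13.1% and 13.9% of all genes tested. Among these, 12 of the higher ones and the lower one were shared. The list's median log2 difference was 0.90 in LFLS and 0.53 in HFHS, against -0.05 and -0.02 over all genes tested. With each library left out in turn, 14 to 18 members were called higher, and with GC and length offsets 18. With the LFLS libraries alone 14 were called higher, and with the HFHS libraries alone 4. Per1 and Lpin1 belonged to this list and to a clock list.

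Igfbp1 (ENSMUSG00000020429), an insulin-repressed secreted binder of insulin-like growth factors, read 85.5, 33.9, 62.2 and 55.9 CPM in LFLS-1 and 302, 220 and 483 CPM in LFLS-2. In HFHS-1 Igfbp1 read 38.7, 38.0, 46.2 and 46.7 CPM and in HFHS-2 71.1, 151 and 124 CPM. No number 1 library reached any number 2 library of its diet, and the difference was 1.99 ± 0.26 (log2, SE; adjusted p = 0.000531, edgeR). Tat (ENSMUSG00000001670), the tyrosine aminotransferase gene and a classical glucocorticoid target, read 1320, 1230, 525 and 713 CPM in LFLS-1 and 3010, 2830 and 3800 CPM in LFLS-2. In HFHS-1 Tat read 609, 773, 690 and 604 CPM, and in HFHS-2 1190, 1620 and 1600 CPM. The 2 sets were again apart in each diet, by 1.46 ± 0.20 (adjusted p = 0.000759, edgeR).

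Other glucocorticoid-responsive genes were higher too. Tsc22d3, which encodes the anti-inflammatory protein GILZ, rose by 1.31 ± 0.19 (adjusted p = 0.000925, edgeR), and Zbtb16, a zinc finger repressor, by 2.37 ± 0.44 (adjusted p = 0.00318, edgeR). Fkbp5, a co-chaperone of the glucocorticoid receptor, was 0.95 ± 0.19 higher, and Sgk1, a kinase gene, 0.54 ± 0.12 higher. All of these were shared, and only Zbtb16 overlapped between the numbers in HFHS, where number 1 ran from 6.38 to 29.4 CPM and number 2 from 24.9 to 56.2 CPM.

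Genes of glucose production formed the next group. Pck1, which encodes the cytosolic phosphoenolpyruvate carboxykinase, ran from 1810 to 3520 CPM in LFLS-1, 4120 to 4700 CPM in LFLS-2, 1200 to 1550 CPM in HFHS-1 and 2230 to 2900 CPM in HFHS-2. Its difference was 0.84 ± 0.15 (adjusted p = 0.00232, edgeR), 0.78 in LFLS and 0.90 in HFHS. G6pc, the glucose-6-phosphatase gene, was higher by 0.82 ± 0.17 (adjusted p = 0.00547, edgeR), with overlap in HFHS through the 1050 CPM of HFHS-1 replicate 2. Got1, the cytosolic aspartate aminotransferase gene, rose by 1.32 ± 0.16, the transcription factor gene Foxo1 by 0.63 ± 0.11 and Pdk4, an inhibitor of pyruvate oxidation, by 1.18 ± 0.26. The coactivator gene Ppargc1a was higher by 1.98 in LFLS and 0.54 in HFHS, without overlap in either, and this difference between diets passed its own test (interaction adjusted p = 0.0360, edgeR).

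Fgf21, a liver hormone also known to rise in fasting, was the exception within this list. It read 11.9, 25.3, 13.8 and 18.2 CPM in LFLS-1, 3.48, 3.37 and 8.09 CPM in LFLS-2, 8.03, 12.8, 8.40 and 11.8 CPM in HFHS-1 and 7.31, 4.09 and 2.14 CPM in HFHS-2. Its number 2 libraries all lay below those of number 1 in each diet, with a log2 difference of -1.48 ± 0.29 (adjusted p = 0.00399, edgeR). Fgf21 was named among the largest differences, for which this lack of overlap was a condition. The fat oxidation gene Cpt1a, with Irs2, Klf9 and Cidec, was among the members not called.

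**Figure D2:**
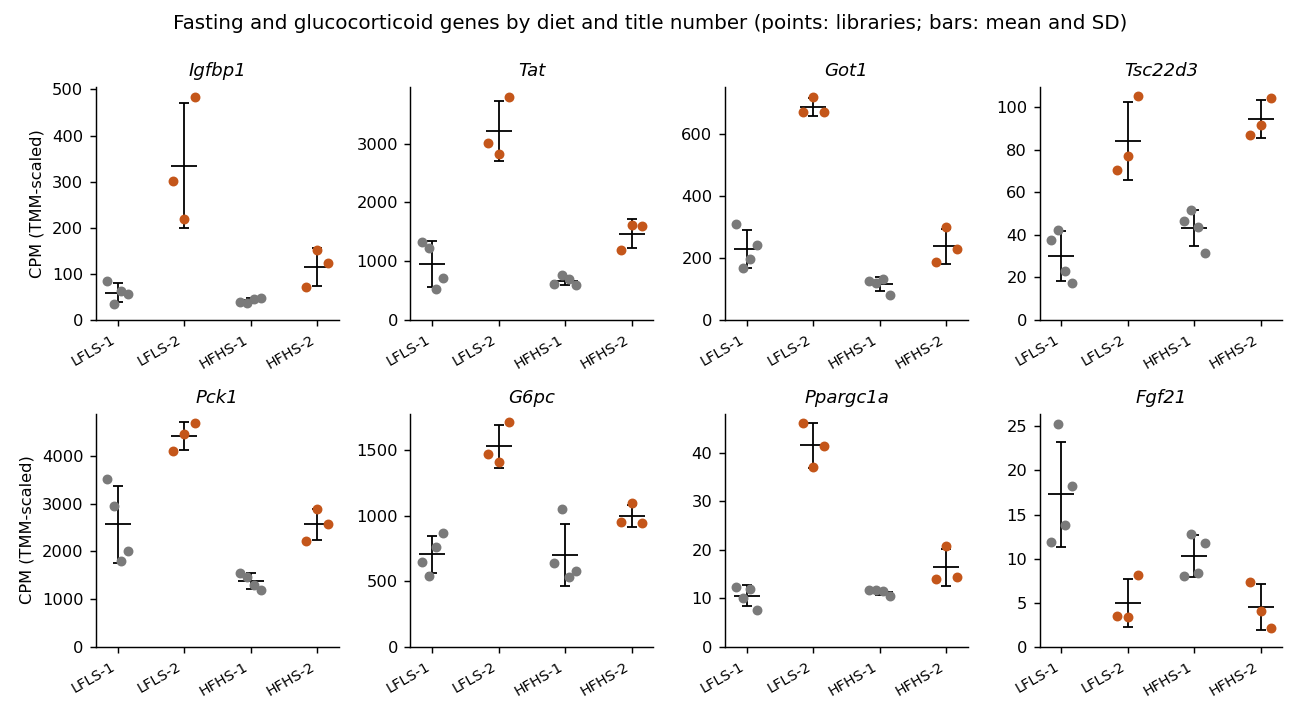
CPM of 8 fasting and glucocorticoid genes in each library (points; grey, title number 1; orange, title number 2) by group, with the mean and SD as bars and a linear vertical axis from 0. Number 2 libraries of Igfbp1 lie between 220 and 483 CPM in LFLS and between 71.1 and 151 CPM in HFHS, above number 1 of the same diet, and Fgf21 shows the reverse order.

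Few genes of lipid storage and sterol synthesis were called, and their counts of lower members were near the 13.9% of all genes tested that were called lower. The lipogenesis list had 1 of 22 members called higher and 3 lower, and the shared one was Mlxipl, which encodes the glucose-responsive factor ChREBP (-0.64 ± 0.11, adjusted p = 0.00242, edgeR). Cholesterol synthesis had 0 higher and 4 lower of 23, 3 of them shared, among them the enzyme genes Mvd (-1.30 ± 0.34) and Mvk (-0.80 ± 0.22) and the regulator gene Srebf2 (-0.46 ± 0.10). With GC and length offsets 1 of the 4 was called, and Mvk and Srebf2 stood at adjusted p values of 0.0864 and 0.391 (edgeR). Mvk also had an adjusted p of 0.0533 without LFLS-2 replicate 3 (edgeR).

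Oxidative and detoxifying genes of hepatocytes were called only upwards in 3 lists, beside 13.1% of all genes tested called higher. PPARA targets had 9 of 24 called higher and 0 lower, with Cyp4a10 (1.01 ± 0.19), Acot4 (0.88 ± 0.16), Decr1 (0.41 ± 0.09) and Slc25a20 (0.35 ± 0.08) shared. Scaled by library totals alone the PPARA list had 6 higher and 2 lower. Phase I drug metabolism had 9 of 30 higher and 0 lower, and phase II and antioxidant genes 6 of 26 and 0. The flavin monooxygenase genes Fmo2 (1.48 ± 0.26) and Fmo5 (0.73 ± 0.13) and the xenobiotic receptor gene Nr1i2 (0.70 ± 0.14) were shared. With GC and length offsets 5 phase I members and 1 phase II member were called higher, against 1304 of all 18236 genes tested. Without LFLS-2 replicate 3 the phase I count was also 5. With the LFLS libraries alone 4 PPARA targets, 11 phase I and 6 phase II members were called higher, and 1 PPARA target lower. With the HFHS libraries alone 0 members of these 3 lists were called.

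Zonation lists differed from one another in their counts, beside 13.1% called higher and 13.9% lower over all genes tested. Periportal genes had 8 of 16 higher and 1 lower, among them the urea cycle gene Ass1 (0.75 ± 0.17), Pck1 and Agxt2l1 (1.70 ± 0.24), while pericentral genes had 3 of 14 higher and 3 lower, with the Wnt target Axin2 at -0.81 ± 0.16. Bile acid and sterol handling had 4 of 19 higher and 3 lower, including the bile salt export pump gene Abcb11 (-0.58 ± 0.11). The hepatocyte identity list had 2 of 23 in each direction, among them the factor gene Cebpa at -0.63 and the tryptophan-degrading enzyme gene Tdo2 at 0.69. Cebpa and Tdo2 lost their calls with GC and length offsets (adjusted p = 0.0748 and 0.163, edgeR).

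Calls among antigen presentation and interferon-stimulated genes were mostly lower under number 2, beside 13.9% of all genes tested called lower. Antigen presentation had 9 of 14 members lower and 1 higher, with the peptide transporters Tap1 (-0.71 ± 0.13) and Tap2 (-0.60 ± 0.11) and the class II regulator Ciita (-1.04 ± 0.24) shared. With GC and length offsets 7 members were lower and 0 of them shared, and with the HFHS libraries alone 0 were called. Cd74, the class II invariant chain, ran from 90.0 to 145 CPM in LFLS-1 and 40.0 to 50.0 CPM in LFLS-2, but from 50.8 to 149 CPM in HFHS-1 and 58.1 to 70.6 CPM in HFHS-2, where it overlapped. Interferon-stimulated genes had 14 of 34 lower and 0 higher, and with the HFHS libraries alone 0 were called. The shared ones were Isg15 (-0.74 ± 0.14), Mx1 (-0.59 ± 0.13), Oasl1 (-0.72 ± 0.16) and Oas1a (-0.76 ± 0.17). Counts of lower interferon genes fell to as few as 5 when LFLS-2 replicate 1, 2 or 3 was left out, and stood at 9 with GC and length offsets, where Oasl1 had an adjusted p of 0.0564 (edgeR).

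Markers of resident macrophages and of other cells of the sinusoid were called lower or not called, beside 13.9% of all genes tested called lower. The HFHS libraries alone, which gave 89 calls in all, called 0 members of the Kupffer cell, endothelial and stellate lists. Of 23 Kupffer cell and macrophage genes 8 were lower and 0 higher, and 5 were shared: the complement genes C1qa, C1qb and C1qc, the lectin Clec4f and Cd5l. C1qc ran from 37.9 to 41.1 CPM in LFLS-1, 19.2 to 28.3 CPM in LFLS-2, 27.9 to 44.5 CPM in HFHS-1 and 21.8 to 24.4 CPM in HFHS-2. These ranges do not overlap within a diet, and the log2 difference was -0.70 ± 0.11 (adjusted p = 0.00152, edgeR). Clec4f differed by -0.59 ± 0.11 and Cd5l by -0.56 ± 0.13. Summed over the list, however, the libraries spanned 825 to 899 CPM in LFLS-1, 423 to 754 CPM in LFLS-2, 582 to 1040 CPM in HFHS-1 and 571 to 593 CPM in HFHS-2. Sinusoidal endothelial genes had 10 of 20 lower and 0 higher, 1 of them, Egfl7 (-0.34 ± 0.08), shared. Stellate cell and matrix genes had 5 of 24 lower, against 13.9% of all genes tested, and 0 higher, with Pdgfrb (-1.17 ± 0.22) and Col5a1 (-0.86 ± 0.23) shared.

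The correction for GC content changed these counts unequally. With GC and length offsets 7 Kupffer cell members were lower, of which 2 were shared. The endothelial and stellate lists then had 2 lower members each, and Egfl7 and Col5a1 had adjusted p values of 0.470 and 0.133 (edgeR). The endothelial count fell to as few as 5 when LFLS-2 replicate 1, 2 or 3 was left out. Markers of blood cells moved in few cases, with 0 of 8 red blood cell, 1 of 17 T and NK cell (lower), 1 of 13 B cell (lower) and 2 of 6 neutrophil genes (lower) called. Bile duct genes had 1 of 14 lower, against 13.9% of all genes tested without offsets.

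Exocrine pancreas genes, which dissection can carry into liver samples, were called in 0 of 29 cases, yet their median log2 difference was -5.32 in LFLS and 1.73 in HFHS. Their share of counts ran from 0.00154% in HFHS-2 replicate 2 to 0.228% in LFLS-1 replicate 2 and did not follow the title number (exact permutation p = 0.753). Over all genes tested 13.1% were called higher and 13.9% lower. Adipose genes had 1 of 10 higher, muscle 1 of 4 lower and intestine 1 of 3 higher. The acute phase list had 3 of 30 higher, the unfolded protein list 1 of 25 higher and 4 lower, and the immediate early and heat shock list 4 of 29 higher and 5 lower. Within these, Gadd45g (1.82 ± 0.33) was higher in both diets, while Junb (-1.26 ± 0.23), Gadd45a (-1.07 ± 0.25), the endoplasmic reticulum gene Sdf2l1 (-1.46 ± 0.24) and the chaperone gene Calr (-0.57 ± 0.12) were lower. The interleukin-6 receptor gene Il6ra was higher by 0.83 ± 0.16.

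Genes of RNA processing were often called higher under number 2 with diet as covariate. Of 28 spliceosome and RNA processing factors 18 were called higher, against 13.1% of all genes tested, and 0 lower. Of these 3 were shared, and the median log2 difference was 0.69 in LFLS and 0.10 in HFHS. The test of the difference between diets called 4 of the 28, against 0.812% of all genes tested. Srsf11, a splicing factor of the SR family, differed by 1.01 in LFLS and 0.31 in HFHS (interaction adjusted p = 0.0360, edgeR), and the splicing kinase gene Clk1 by 1.00 and 0.22 (interaction adjusted p = 0.0442, edgeR). Rbm25 (0.83 ± 0.14) and the nuclear noncoding RNA Malat1 (0.85 ± 0.16) were shared. With GC and length offsets 8 of the 28 were called, without Clk1 (adjusted p = 0.137, edgeR), and with library totals alone 9 were higher and 1 lower. Leaving out LFLS-2 replicate 1, 2 or 3 brought the number of higher members down to as few as 11. With the LFLS libraries alone 22 were called higher, and with the HFHS libraries alone 0.

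The remaining lists varied in their medians and counts, beside 13.1% called higher and 13.9% lower over all genes tested. Mitochondrially encoded genes had 5 of 15 higher, with a median of 0.44 that became -0.06 with GC and length offsets. Nuclear-encoded oxidative phosphorylation had 8 of 44 higher, cytosolic ribosomal proteins 2 of 40, nuclear-retained noncoding RNAs 3 of 13 and cell cycle genes 4 of 29, with 0 lower in each. Histone genes had 1 of 13 higher and 4 lower. H2afj was the histone gene with the clearest difference (-0.73 ± 0.09, adjusted p = 0.00042, edgeR), and Rps4x the ribosomal one (0.73 ± 0.10). Male-biased liver genes had 1 of 25 higher and female-biased genes 5 of 20, including Fmo2.

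**Figure D3:**
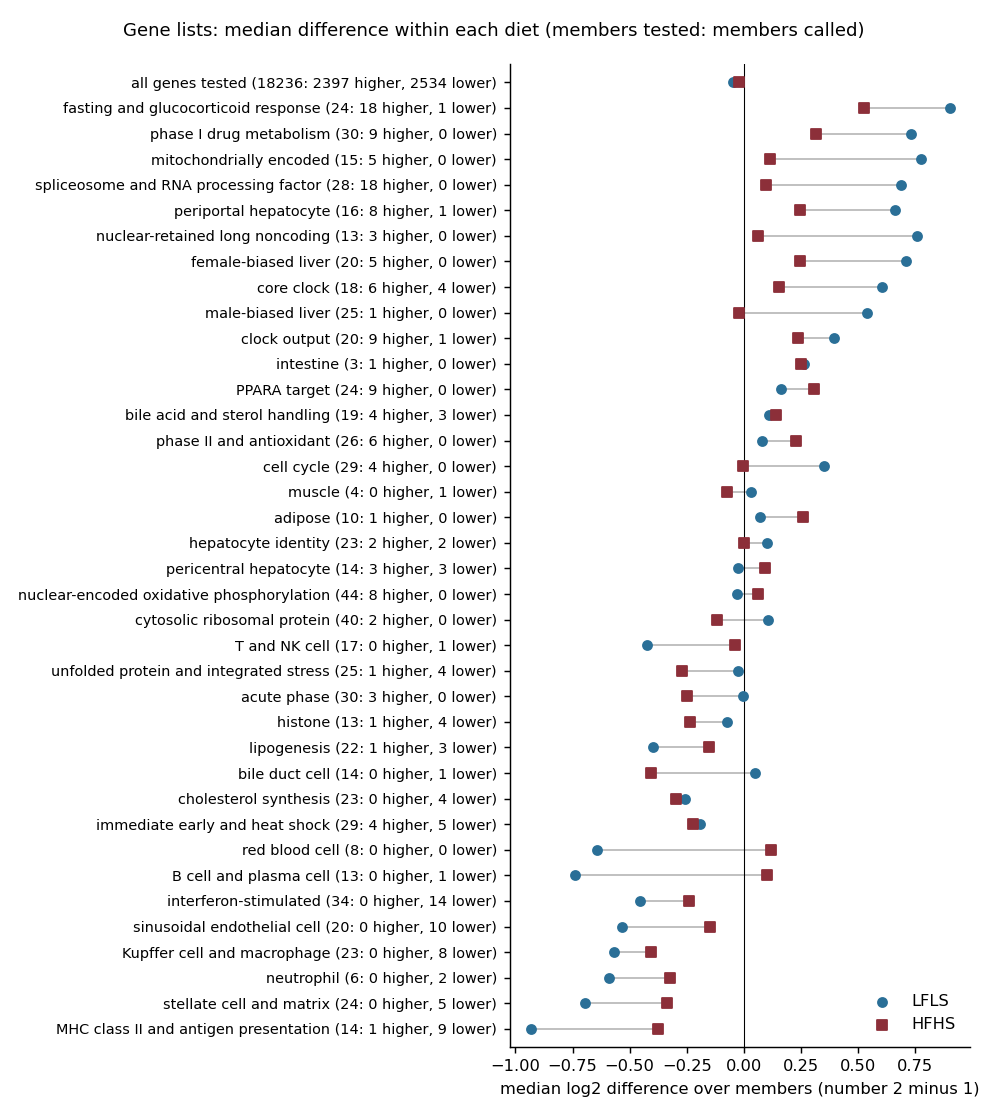
Median log2 difference (title number 2 minus 1) over the tested members of 37 gene lists and over all genes, in LFLS (blue circles) and HFHS (red squares), with the number tested and called beside each name. The fasting and glucocorticoid list stands at 0.90 and 0.53 and antigen presentation at -0.93 and -0.38, while the exocrine pancreas list, at -5.32 and 1.73, is left off for scale.

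Outside the lists, the steepest shared differences were in genes with low or tissue-foreign expression and in a few hepatic signalling genes. Vwc2l (ENSMUSG00000045648), a secreted protein of the von Willebrand C domain family, had deposited counts of 1, 1, 1 and 2 in LFLS-1 and of 78, 102 and 107 in LFLS-2. In HFHS-1 its counts were 9, 7, 2 and 1 and in HFHS-2 27, 65 and 58. Because 1 is the lowest value in the table, the LFLS libraries of number 1 were at or beside the floor. At 2.70 to 4.09 CPM in LFLS-2 and 1.47 to 2.95 CPM in HFHS-2, it was above every number 1 library, none of which passed 0.232 CPM.

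Among better expressed genes Sik1 (ENSMUSG00000024042), a salt-inducible kinase that restrains cAMP-driven transcription, read 22.8, 18.3, 18.7 and 27.0 CPM in LFLS-1 and 84.9, 77.1 and 72.8 CPM in LFLS-2. In HFHS-1 Sik1 read 21.8, 23.7, 29.3 and 30.2 CPM and in HFHS-2 50.5, 58.1 and 82.4 CPM. Number 2 was above number 1 throughout, by 1.57 ± 0.15 (adjusted p = 6.67e-05, edgeR). Arrdc3 (ENSMUSG00000074794), an arrestin domain protein gene, went the other way, from 259 to 320 CPM in LFLS-1 to 47.6 to 56.0 CPM in LFLS-2 and from 265 to 532 CPM in HFHS-1 to 83.7 to 156 CPM in HFHS-2. Its difference was -2.03 ± 0.20 (adjusted p = 0.000115, edgeR).

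The other large increases covered several functions. Ppp1r3g, a subunit that targets protein phosphatase 1 to glycogen, was higher by 2.35 ± 0.49, with HFHS-1 at 1.10 to 6.10 CPM and HFHS-2 at 9.66 to 21.2 CPM. The sulfate transporter gene Slc13a1 had 1 to 9 counts in LFLS-1 and 63 to 123 in LFLS-2, and differed more in LFLS than in HFHS (interaction adjusted p = 0.0471, edgeR). Adam2, Adam22, Lmod2, the axonemal dynein gene Dnahc3 and the surfactant gene Sftpa1 were higher by 2.32, 2.12, 2.40, 2.13 and 2.00 at mean levels under 7 CPM in every group. Agxt2l1 (newer symbol Etnppl, an enzyme of phosphoethanolamine breakdown) was higher by 1.70 ± 0.24. Lonrf3 (1.93 ± 0.16), Gm11128 (newer symbol Nat8f6, 1.74 ± 0.16) and Gm17179 (1.53 ± 0.12) were among the genes with the smallest p values. Gm17179 is annotated as antisense, and no source states that strand was kept, so reads of the opposite strand cannot be told apart. It had no GC value, so the GC and length offsets left it uncorrected. A copy of the U6 small nuclear RNA was also among the large increases, but its near-identical copies leave its count uncertain.

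Among the large decreases were genes of secreted factors. Gdf15, a stress-induced hormone, was lower by 1.82 on the log2 scale (-1.82 ± 0.32, adjusted p = 0.00244, edgeR), from 46.8 to 136 CPM in LFLS-1 to 15.9 to 28.0 CPM in LFLS-2. Gm6484 carries the newer symbol Angptl8, a feeding-induced inhibitor of lipoprotein lipase, and differed by -2.04 ± 0.28. It lies inside Dock6 on the other strand in GENCODE M21, and Dock6 differed by -1.43 ± 0.22. Gm15347 (-1.30) likewise overlaps Atp11a (-1.41) on the opposite strand. No source states that strand was kept, so reads of each pair cannot be told apart. Loxl1 (-1.47), the muscarinic receptor gene Chrm3 (-1.73) and 1700023H06Rik (-1.89) completed the set. Each of the genes in this and the preceding paragraphs on large differences was apart between the numbers in both diets. For genes named by the size of their difference, this was a condition of naming. It is therefore not a separate result for them.

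The size of the differences was not equal in the 2 diets. In a fit with 4 groups 6688 genes (36.7%) were called in LFLS, 3335 higher and 3353 lower, and 27 genes (0.148%) in HFHS, 20 higher and 7 lower. All 27 were also called in LFLS in the same direction, and all 27 belonged to the shared set. They included Gm17179, Vwc2l, Lonrf3, Sik1, Gm11128, Arrdc3, Cry1, Dnahc3 and Sftpa1. Named after their values were seen, the list also held Nampt, the rate-limiting enzyme of NAD salvage (1.40 ± 0.16), the histidine decarboxylase gene Hdc (1.49 ± 0.16) and the thyroid hormone receptor gene Thra (-0.92 ± 0.10). Nampt read 42.4, 43.2, 50.2 and 47.6 CPM in LFLS-1 and 139, 201 and 157 CPM in LFLS-2, and 115, 97.3, 85.8 and 78.7 CPM in HFHS-1 against 149, 184 and 204 CPM in HFHS-2.

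Shared genes had a median absolute log2 difference of 0.78 in LFLS and 0.46 in HFHS, and 1297 of the 1484 had the larger one in LFLS. The direct test of the difference between diets called 148 genes (0.812%), all with the larger absolute difference in LFLS, 32 with opposite directions and 30 within the shared set. Ptp4a1, a tyrosine phosphatase gene, was 2.03 higher in LFLS and 0.39 in HFHS, and the kinase gene Riok2 1.08 and 0.16 (interaction adjusted p = 0.0164 for both, edgeR). Gm16957 and Arhgef26 were 1.30 and 1.34 higher in LFLS with -0.01 in HFHS for both. The 148 calls depended on the analysis, with 1513 by DESeq2 and 5 with GC and length offsets. Their number ran from 0 to 1191 as single libraries were left out.

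**Figure D4:**
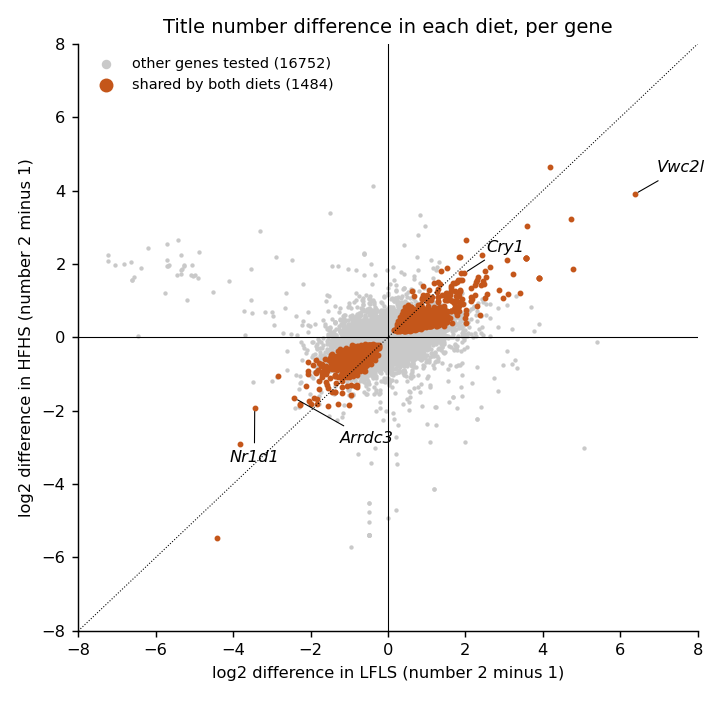
Log2 difference (title number 2 minus 1) of each of 18236 genes in LFLS (horizontal) and HFHS (vertical), with the 1484 shared genes in orange and a dotted line of equality. Shared genes lie by their rule at the lower left and upper right, mostly with the larger difference in LFLS, for example Nr1d1 at -3.44 and -1.92.

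Across all genes tested the differences in the 2 diets, which come from separate mice, had the same sign in 69.7% of genes, with a Spearman rho of 0.51 across genes, which are not independent replicates. The title number also moved with the GC content of genes. For each library, the correlation over genes of its deviations with GC content was 0.62, 0.41, 0.48 and 0.28 in LFLS-1 and -0.44, -0.33 and -0.41 in LFLS-2. In HFHS-1 it was 0.04, -0.26, -0.12 and -0.08, and in HFHS-2 -0.17, -0.42 and -0.49. The 2 numbers differed by -0.55 (exact permutation within diets, p = 0.00163, adjusted p = 0.0098), and within HFHS alone by -0.26 (exact permutation p = 0.0857).

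Median differences fell from the genes poorest in GC to the richest. Genes were divided by GC content into 10 bins of equal size. In the lowest bin the median log2 difference was 0.67 in LFLS and 0.10 in HFHS, and in the highest -0.54 and -0.22. The median GC content was 45.0% for shared higher genes, 56.3% for shared lower genes and 49.4% for all. A fit with offsets that remove the trend with GC and length in each library called 2431 genes (13.3%), of which 1823 were among the 4931. It left 652 shared higher (3.58%) and 511 shared lower genes (2.8%), and 434 and 358 of these were in the sets without offsets. Agreement between diets was then 65.9% by sign, with a Spearman rho of 0.43.

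**Figure D5:**
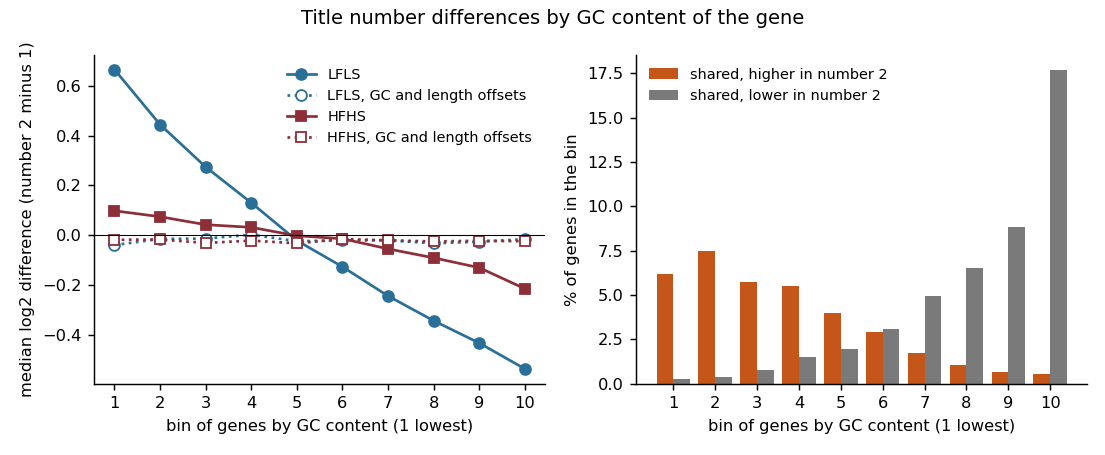
Left, median log2 difference (title number 2 minus 1) in each of 10 equal bins of genes by GC content, in LFLS (blue) and HFHS (red), without offsets (filled, solid) and with GC and length offsets (open, dotted). Right, the share of each bin that was shared higher (orange) or shared lower (grey), which runs from 6.20% and 0.290% in the lowest bin to 0.580% and 17.7% in the highest.

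The counts depended on scaling and, unevenly, on single libraries. Scaled by library totals alone 1219 genes were higher and 4475 lower, with the median over all genes at -0.16 in place of -0.04, and none of the named genes changed direction. Without LFLS-2 replicates 1, 2 and 3 in turn 3158, 3101 and 2758 genes were called, against 4931 with all libraries. The shared set numbered 881 without HFHS-2 replicate 2 and 874 without HFHS-2 replicate 3. Of the 103 called genes named in the text, 96 kept their calls whichever library was left out. With the HFHS libraries alone, however, 74 named genes lost their calls while keeping their direction.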

How the data were processed

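Polyadenylated liver RNA of 14 mice was sequenced as 50-base single reads from TruSeq libraries, per the labels' protocols. The submitters' processing notes name CASAVA 1.8, Bowtie, TopHat, DESeq and the genome build mm9; the counting tool and annotation are not named there. The authors' deposited table holds raw counts per Ensembl gene (37681 genes), never below 1. Counts were tested with edgeR 4.0.16 (R 4.3.3; TMM, default filter by the 4 groups, 18236 genes) for title number 2 minus 1 with diet as covariate. A 4-group fit gave within-diet differences and their interaction. SE is the log2 difference divided by the square root of F.

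Alternatives used DESeq2 1.42.0, limma 3.58.1 voom, other scalings and filters, covariates, offsets for GC content and length (GENCODE M21, 94.6% of genes) and each library left out. Named genes are the 12 largest shared differences per direction without overlap (mean of at least 1 CPM), the 6 smallest p values, up to 4 called members per list and up to 4 interaction genes. Arntl, Rora, the Per genes, Npas2, Nr1d2, Csnk1e, Bhlhe40, Nampt, Hdc, Thra, Nfil3, Por, Wee1, Tsku, Lpin1, Usp2, Cd74 and, of the fasting list, genes beyond its first 4 were chosen after their values were seen; some genes are not reported here. Members and the 38 gene lists were chosen with earlier results of these data known. The tests recovered changes made in simulated counts, which held no trend with GC content and so do not test calls made under one. Of the gene identifiers 105 had no name in the authors' table.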

Additional observations from a re-analysis of the deposited data

Results flagged for a closer look

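Samples far from the others of their group were looked for in LFLS-1 and HFHS-1, the groups of 4, for 6 library measures and the named genes. A sample was taken as far where its gap to the nearest other exceeded Dixon's critical value, which chance exceeds in about 1 in 20 groups, and 15 of 226 groups did.

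LFLS-1 replicate 1 was highest for Nr1d1 (243 CPM, others 94.0 to 103) and Usp2 (39.9 CPM), and lowest for Npas2 (0.420 CPM), Clec4f (126 CPM) and Col5a1 (10.7 CPM). LFLS-1 replicate 2 was highest in the exocrine pancreas share (0.228%, others 0.00211 to 0.0307%), Isg15 (8.78 CPM) and Rps4x (12.4 CPM). LFLS-1 replicate 3 was lowest for Ptp4a1 (16.4 CPM), and replicate 4 highest for Slc13a1 (0.294 CPM), near the table's floor. HFHS-1 replicate 1 was highest in total counts (45.4 M) and Wee1 (17.9 CPM) and lowest for Sdf2l1 (7.69 CPM, others 22.6 to 26.7). HFHS-1 replicate 3 was lowest for Slc25a20 (102 CPM), and replicate 4 highest in the exocrine pancreas share (0.0317%).

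By the interaction test the HFHS difference minus the LFLS difference (log2) was -0.71 for Nr1d2, -1.44 for Ppargc1a, -2.92 for Slc13a1, -0.70 for Srsf11 and -0.78 for Clk1. It was -1.31 for Gm16957, -0.92 for Riok2, -1.64 for Ptp4a1 and -1.35 for Arhgef26, and 148 genes passed this test in all.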

How the results depend on the processing

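The 4931 calls became 2431 with GC and length offsets (1304 higher, 1127 lower, 511 shared lower), 89 with the HFHS libraries alone (72 higher, 17 lower) and 2606 with the title letters as a replicate block (1281 higher, 1325 lower, 1382 interaction calls). Library totals alone gave 1219 higher and 4475 lower (298 and 1729 shared, 50 interaction calls), and no filter 845 higher (236 and 1600 shared, 2 interaction calls). Without the diet covariate 1571 were higher, and limma voom gave 1472 and 1511 shared and 3414 interaction calls. Interaction calls were 1513 by DESeq2, 2090 without the BC libraries and 5 with GC and length offsets. Leaving out single libraries gave 2758 to 5473 calls (1474 to 2977 higher, 1284 to 2554 lower), 411 to 1007 shared higher, 456 to 1065 shared lower and 0 to 1191 interaction calls. The title letters were taken as no pairing, since only 2 of 6 same-letter pairs correlated over 0.1 in their deviations (-0.08 to 0.22) and 3 of 12 libraries correlated best with their own letters.

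The mitochondrial difference was 1.77 points within LFLS and 0.281 within HFHS (exact permutation p = 0.0571 and 0.257), and 0.801 to 1.19 without single libraries. The GC correlation differed by -0.255 within HFHS (exact permutation p = 0.0857), and by -0.597 to -0.516 without single libraries. The pancreas share differed by 0.0175 within HFHS, and by -0.0349 to 0.00274 without single libraries. Differences that changed direction were those of Nr1d2 (-0.0374), Gm16957 (-0.00854) and Arhgef26 (-0.0103) with HFHS alone. The causes were not tested. Of 103 called genes, 80 kept their calls in all alternatives except the single diets, and 11 lost them with GC and length offsets. With the HFHS libraries alone 74 named genes lost their calls while keeping their direction, and with the LFLS libraries alone 13 did. The calls of Gm16957 and Arhgef26 were lost without any 1 of 2 and 5 libraries (adjusted p up to 0.0545 and 0.0591, edgeR).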
